A study of Mus musculus with 5 samples.

Results

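Of the 53 keratin genes listed in the tables of mouse ovarian cells, 5 were followed across surface epithelium, rete ovarii, granulosa stages, other cell types and ages, namely Krt7, Krt8, Krt18, Krt19 and Krt20. They were chosen by name from the 31053 genes listed and were found in all 5 tables. Ovaries of untreated C57BL6/J mice were taken at 2, 3, 4, 5 and 6 wk of age and dissociated with trypsin, live cells were sorted, and 1 library per age was made with the 10x Genomics 3′ chemistry. No mutant, transgene or treated group was part of the series, and the number of mice pooled in a library was not given in the sources used here. Levels are given as unique molecular identifiers (UMIs, each marking 1 captured RNA molecule) in each 1000000 UMIs of the same cells (CPM), so different keratins were compared without a length correction.

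Keratins are the intermediate filament proteins of epithelial cells, and a filament is built from pairs of a type I and a type II chain. Krt7 and Krt8 are type II chains, and Krt18, Krt19 and Krt20 are type I chains. Krt8 and Krt18 form the usual pair of simple epithelia, Krt7 and Krt19 are added in ducts and in mesothelium, and Krt20 is best known from the intestine and the urothelium. The ovary is covered by a mesothelial surface epithelium, the rete ovarii is an epithelial remnant at its hilum, and granulosa cells surround the oocyte of each follicle.

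On GRCm38 the genes lie in 2 regions. Krt20 occupies chr11:99428403-99438150 and Krt19 chr11:100140810-100148665, both on the minus strand within the type I keratin cluster. Krt7 occupies chr15:101411043-101430313 on the plus strand and Krt8 chr15:101996698-102004482 on the minus strand. Krt18 (chr15:102028180-102032027, plus strand) is a type I gene beside the type II cluster, and 23697 bases separate it from Krt8, the partner of its protein. The 60 bases before the annotated start are shown for the 4 members found in the RefSeq promoter table (GRCm38.p6), because the levels of Krt8 and Krt18, which lie side by side, were compared with those of Krt20. Each is written 5′ to 3′ on the strand of the gene, and capitals mark the letters TATAA.
Krt7 (chr15:101412343-101412402, plus strand): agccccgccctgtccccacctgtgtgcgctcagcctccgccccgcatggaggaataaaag
Krt8 (chr15:102004343-102004402, minus strand): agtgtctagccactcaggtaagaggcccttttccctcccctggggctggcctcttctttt
Krt18 (chr15:102028156-102028215, plus strand): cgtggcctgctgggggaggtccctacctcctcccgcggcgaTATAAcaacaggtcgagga
Krt20 (chr11:99438154-99438213, minus strand): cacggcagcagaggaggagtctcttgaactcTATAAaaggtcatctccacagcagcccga

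TATAA began 19 bases before the start of Krt18 and 29 bases before that of Krt20, and it did not occur whole in these 60 bases of Krt7 and Krt8. In Krt8 it began at the last base shown and ran past the start, and 2 matches were found on both strands of its whole window of 300 bases, against 0 in that of Krt7. On the strand of the gene, 5.57% of the 32851 promoters in the table held it in the same 60 bases, and 24.9% held it on either strand of the whole window. The windows of Krt7 and Krt8 lie inside the genes as GENCODE annotates them, and that of Krt18 runs past its annotated start, so each window belongs to the RefSeq transcript. A match is a description of the letters only.

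The libraries held 7779 to 11077 cells and 93438618 to 144609431 UMIs, with 9056 to 12424 UMIs in the median cell. Pairs of libraries shared 18 to 35 cell barcodes. The version of Cell Ranger changed between 4 and 5 wk, so it cannot be told apart from age across that step. Cells were clustered with every Krt gene left out of the features, and classes were named from marker lists without a keratin. Surface epithelial-like cells (322) had all 6 of their markers, which summed to 2886 to 3963 CPM in a library against at most 1.26 CPM in granulosa-like cells. They also held 271 to 1015 CPM of granulosa markers, against 4677 to 7204 CPM in granulosa-like cells. Their summed rete markers, 440 to 1205 CPM, were mostly Epcam (665 CPM), while Pax8 stood at 4.72 CPM and Cdh16 at 0. Rete ovarii-like cells (91) had Pax8 at 227 CPM, Cdh16 at 113 CPM, Wfdc2 at 314 CPM and Epcam at 473 CPM. Of the same list, Pax2 had 2 UMIs (1.83 CPM). The rete ovarii-like cells also held 213 to 764 CPM of oviduct markers. The part that other cells of the hilum or oviduct take in this class was not tested.

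The 5 keratins made up 73.5% of the 70682 UMIs of all keratin genes. Krt8 had 25998 UMIs, Krt18 14024, Krt19 5474, Krt20 4779 and Krt7 1678. Surface epithelial-like cells were 0.669% of all cells and held 92.2% of the Krt19 UMIs and 83.1% of those of Krt7. Granulosa-like cells were 36.6% of all cells and held 77.3% of the Krt8 UMIs, 53.4% of those of Krt18 and 87.8% of those of Krt20. Of the Krt20 UMIs, 0.607% came from surface epithelial-like cells, near their share of all cells. Thus most UMIs of Krt7 and Krt19 came from a rare epithelial class, and most of those of the other 3 from the numerous granulosa-like cells.

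**Figure D1:**
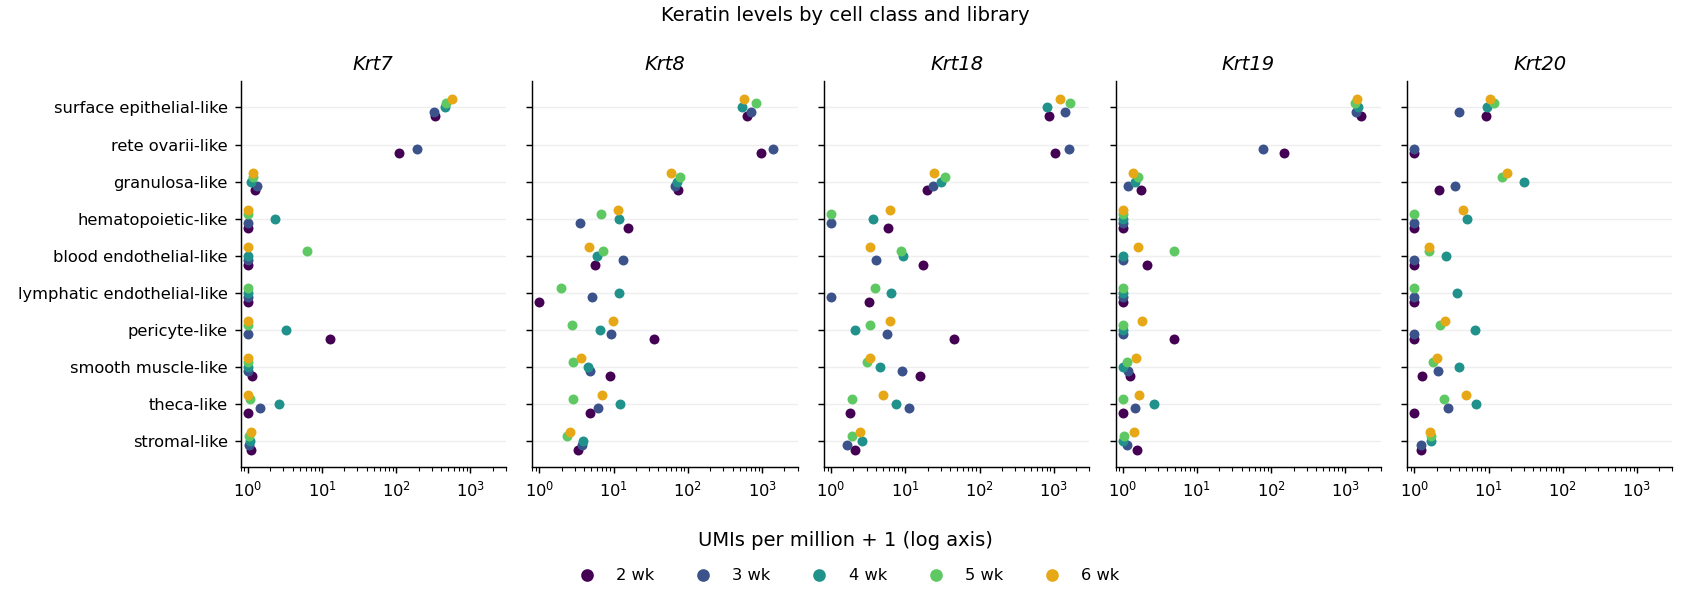
Level of each keratin (CPM + 1, log axis) in 10 cell classes, 1 point per library coloured by age, for sums of at least 20 cells. Krt7 and Krt19 reach 318 CPM or more in surface epithelial-like cells and stay at or below 0.787 CPM in granulosa-like cells, whereas Krt8, Krt18 and, from 4 wk, Krt20 are seen in granulosa-like cells.

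In the surface epithelium the type I chain Krt19 was the most abundant member on average. It stood at 1635, 1393, 1471, 1337 and 1440 CPM at 2, 3, 4, 5 and 6 wk, a mean of 1455 ± 112 (SD, n = 5 libraries). Krt18 stood at 863, 1411, 806, 1648 and 1203 CPM and was above Krt19 at 3 and 5 wk. The type II chain Krt8 was lower than Krt18 in every library, at 624, 707, 541, 826 and 576 CPM. Krt7 stood at 332, 318, 451, 463 and 561 CPM. Krt19 at 1455 ± 112 and Krt18 at 1186 ± 358 did not differ beyond their spread, and Krt8 at 655 ± 114 and Krt7 at 425 ± 101 lay below both means. Krt20 had 29 UMIs in all 322 cells, at 2.97 to 10.7 CPM.

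With 1 library per age, ages were compared by counting intervals alone, which leave out the spread between mice. The level of Krt7 at 6 wk was 1.69 times that at 2 wk (95% interval 1.45 to 1.96). Krt19 was lower at each later age than at 2 wk, with ratios of 0.818 to 0.900. Krt18 was 1.91 times as high at 5 wk as at 2 wk (1.77 to 2.07) and 0.934 times as high at 4 wk (0.818 to 1.06). The surface epithelial-like cells of a library numbered 49 to 108, and their Krt18 and Krt8 levels were both highest at 5 wk and lowest at 4 wk.

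In surface epithelial-like cells 4 of the 5 keratins were higher than in granulosa-like cells. This count stood beside 26.1% of the 13531 genes tested that were higher in the same fit (edgeR quasi-likelihood test on sums per library, library as a term, adjusted p under 0.05). Krt19, at 0.191 to 0.787 CPM in granulosa-like cells, was higher by 11.49 ± 0.37 (log2 ± SE, edgeR adjusted p = 1.10e-22). Krt7, at 0.111 to 0.318 CPM there, was higher by 10.87 ± 0.43 (edgeR adjusted p = 7.22e-22). For Krt18 the difference was 5.44 ± 0.42 (edgeR adjusted p = 4.40e-14), and within a library the surface epithelial-like level was 27.3 to 62.7 times the granulosa-like level. For Krt8 it was 3.17 ± 0.26 (edgeR adjusted p = 2.72e-13), 7.76 to 10.8 times within a library. The groups did not overlap for any of these 4 genes, but the share of all genes without overlap was not counted. In the fits of cell classes Krt7 and Krt19 could pass the filter on low counts through the epithelial classes, where they are high. Their calls there are thus a description of the levels.

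Krt20 gave a log2 difference of -0.01 ± 0.73 (95% interval -1.45 to 1.43, edgeR adjusted p = 0.998), whose sign turned under DESeq2 size factors. Within libraries it was 7.43 times as high in surface epithelial-like cells at 2 wk (3.52 to 14.2) and 0.289 times at 4 wk (0.060 to 0.846). Of the genes called in this contrast 50.5% were higher, 60.2% with DESeq2 size factors and 62.2% with DESeq2 itself. With DESeq2 size factors the median of all genes moved from -0.06 to 0.08 (log2) here, from -0.10 to 0.02 against stromal-like cells and from 0.13 to 0.01 between granulosa-like and hematopoietic-like cells. The differences of the members that passed were all larger than these shifts.

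Against stromal-like cells, fibroblast-like cells of the ovary, all 5 keratins were higher in the surface epithelium, beside 21.1% of genes tested. The log2 differences were 12.22 ± 0.39 for Krt19, 11.97 ± 0.48 for Krt7, 9.79 ± 0.53 for Krt18, 8.04 ± 0.33 for Krt8 and 4.03 ± 0.55 for Krt20. For Krt20 the edgeR adjusted p was 9.50e-08 and for the other 4 it was below that. Stromal-like levels were at most 2.87 CPM for Krt8, 1.58 CPM for Krt18 and 0.699 CPM for the other 3. The calls on Krt7 and Krt19 are a description here too, as the filter could be passed through the epithelial classes. Among the genes called in this contrast 45.7% were higher, and 56.4% with DESeq2 size factors.

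**Figure D2:**
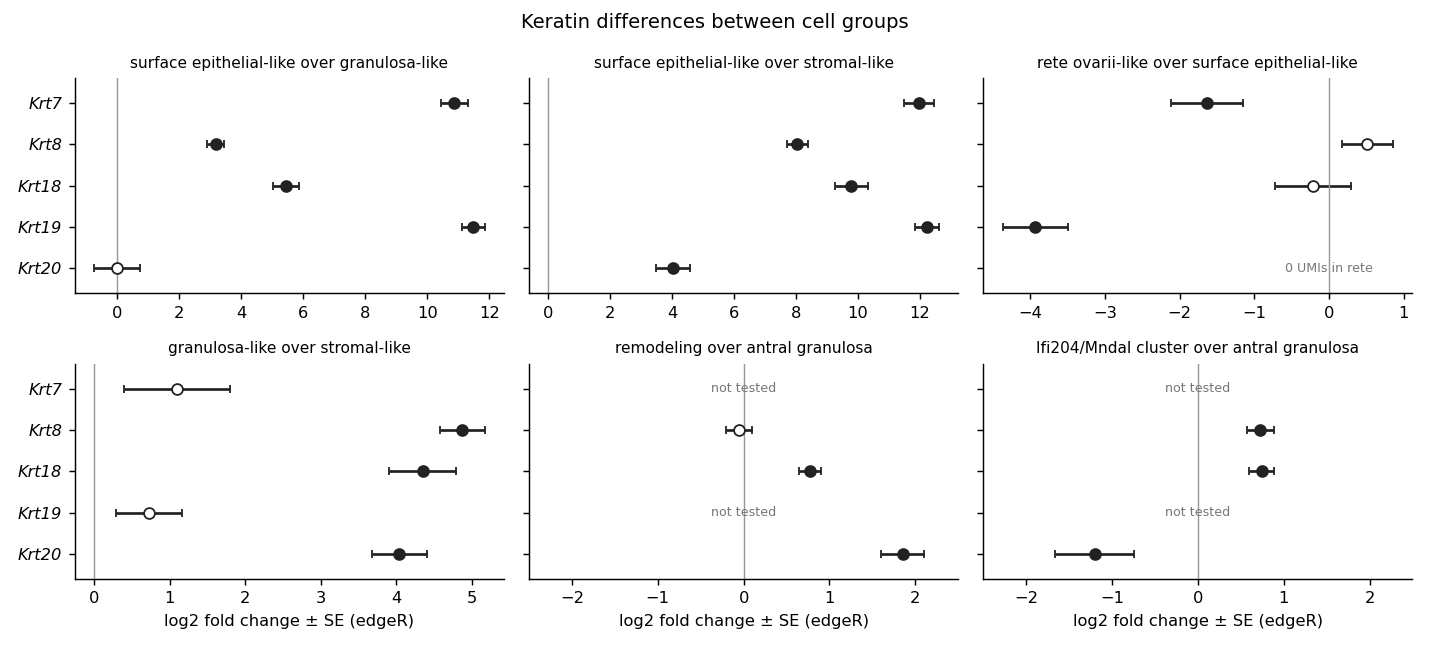
Log2 fold change ± SE of each keratin in 6 contrasts between cell groups, from the edgeR fit over 5 libraries (2 for rete ovarii-like cells); filled points passed an adjusted p of 0.05, open points did not, and the scale of the x axis differs between panels. Krt19 and Krt7 show the widest separation of epithelium from granulosa cells, and Krt20 is the member that did not pass between these classes.

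The rete ovarii-like cells, 54 at 2 wk and 31 at 3 wk, carried mostly the Krt8 and Krt18 pair. Krt18 stood at 1033 CPM at 2 wk and 1607 CPM at 3 wk. Krt8 stood at 953 and 1411 CPM. Krt7 stood at 108 and 189 CPM, and Krt19 at 147 and 75.7 CPM. Both Krt7 and Krt19 were below the surface epithelial-like level of the same library. Of the 5 keratins, 2 were lower in rete ovarii-like than in surface epithelial-like cells, beside 8.65% of genes tested. These were Krt19, by -3.94 ± 0.44 (log2 ± SE, edgeR adjusted p = 2.96e-08), and Krt7, by -1.63 ± 0.48 (edgeR adjusted p = 0.0125). The call on Krt7 was lost with DESeq2 (log2 difference -1.81, adjusted p = 0.448) and without the 2 wk library (edgeR, -1.14, adjusted p = 0.257). Without the 3 wk library it was -2.23 (edgeR adjusted p = 0.0339).

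For Krt8 the rete ovarii-like level was 1.53 and 2.00 times that of the surface epithelium at 2 and 3 wk, but the fit gave 0.51 (95% interval -0.16 to 1.18, edgeR adjusted p = 0.332). For Krt18 it gave -0.22 (-1.22 to 0.78, edgeR adjusted p = 0.856), although both libraries were higher, by 1.20 and 1.14 times. Because surface epithelial-like levels of later ages enter the fit, it need not match the ratios within a library. Krt20 had no UMI in 91 rete ovarii-like cells. Over 2 and 3 wk its level in the surface epithelium was 7.21 CPM from 12 UMIs. That was 2.63 times the 2.74 CPM that a floor of 3 counts allows in the rete ovarii-like cells of both libraries. The counting error of the 12 UMIs is left out of this value.

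Granulosa cells carried Krt8 at all ages, with less Krt18. Krt8 stood at 73.7, 66.5, 69.8, 76.2 and 58.4 CPM at 2, 3, 4, 5 and 6 wk, and Krt18 at 18.6, 22.5, 29.5, 33.2 and 23.2 CPM. Krt20 stood at 1.12, 2.57, 29.3, 14.0 and 16.8 CPM. Thus Krt8 varied little between libraries (68.9 ± 6.95 CPM), whereas Krt20 was low at 2 and 3 wk and high at 4, 5 and 6 wk. Compared with stromal-like cells, 3 of the 5 keratins were higher in granulosa-like cells, beside 29.7% of genes tested, with log2 differences of 4.87 ± 0.29 for Krt8, 4.35 ± 0.44 for Krt18 and 4.04 ± 0.37 for Krt20. For Krt7 and Krt19 the differences were 1.09 ± 0.71 and 0.73 ± 0.43 and did not pass (edgeR adjusted p = 0.180 and 0.147). The Krt19 difference passed when Krt genes were kept for clustering (edgeR adjusted p = 0.0333) and when the libraries were merged without integration (edgeR adjusted p = 0.0179). Where Krt genes were kept, they helped to form the classes, so that p-value is not independent of the clustering.

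Hematopoietic-like cells, which should lack these keratins, stood for the level that free RNA can give. Their 495 cells held 38 Krt8 UMIs (2.53 to 14.8 CPM per library), 11 of Krt18, 7 of Krt20, 1 of Krt7 and none of Krt19. They also held 453 to 1124 CPM of granulosa markers. In this comparison 3 of 5 keratins were higher in the granulosa class, beside 30.0% of genes tested, by 2.74 ± 0.40 for Krt8, 3.11 ± 0.83 for Krt18 and 2.69 ± 0.61 for Krt20 (log2 ± SE). The edgeR adjusted p was 1.66e-07, 0.00139 and 2.42e-04 in this order. For Krt7 and Krt19 the hematopoietic-like counts were too low for a fold. Without the 5 wk library the Krt18 difference was 2.49 (edgeR adjusted p = 0.0124), and without the 6 wk library it was 3.86 (0.00328 in the same test) and that of Krt20 3.31 (0.00152). The part of free RNA in the granulosa-like levels was not tested further.

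After each cell was thinned to 3000 UMIs, 91.5% of 294 surface epithelial-like cells had a Krt19 UMI (exact binomial 95% interval 87.7 to 94.4). Krt18 was found in 82.3% of them, Krt8 in 73.8%, Krt7 in 64.3% and Krt20 in 2.04%. Of 90 rete ovarii-like cells, 75.6% had Krt8, 74.4% Krt18, 28.9% Krt7 and 22.2% Krt19, while 0 of 90 had Krt20, which allows a share of up to 3.33%. Of 17498 granulosa-like cells, 17.0% had Krt8, 7.41% Krt18 and 4.56% Krt20. By library this Krt20 share ran from 0.535% at 2 wk to 8.68% at 4 wk. In 370 hematopoietic-like cells the shares were 0.811% for Krt8, 1.08% for Krt18 and 0.270% for Krt20, with 0 for Krt7 and Krt19, which allows up to 0.811%. In granulosa-like cells Krt7 was found in 0.034% and Krt19 in 0.126%, which these hematopoietic-like cells are too few to tell from background. Cells that were too shallow, and so were left out, numbered 28 of the surface epithelial-like, 1 of the rete ovarii-like, 145 of the granulosa-like and 125 of the hematopoietic-like class. Before thinning the median surface epithelial-like cell held 9131 UMIs, the median granulosa-like cell 15199 and the median hematopoietic-like cell 8880. Without thinning the surface epithelial-like share was 94.7% for Krt19, the granulosa-like share 52.6% for Krt8 and 15.5% for Krt20, and the hematopoietic-like share 4.65% for Krt8 and 1.21% for Krt20.

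Several keratins were found together in epithelial cells. At this depth 33.3% of the surface epithelial-like cells had a UMI of exactly 3 members, 41.8% of 4 and 1.36% of none. Krt8 and Krt18 were seen together in 61.9% of them and in 64.4% of rete ovarii-like cells. Krt7 and Krt19 were seen together in 59.9% and 12.2%. Among granulosa-like cells 73.5% had none of the 5, 24.0% had 1 and 2.46% had 2. Over all granulosa-like cells, those with Krt20 had Krt8 in 12.3% of 798 cases, and those without Krt20 in 17.2% of 16700. Within groups these shares were 12.6% and 14.7% in remodeling, 15.0% and 16.6% in antral, 14.3% and 21.3% in primary, 8 of 40 cells and 18.1% in mitotic and 27.3% (6 of 22) and 16.9% in S phase cells, so the order was not the same in all of them.

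**Figure D3:**
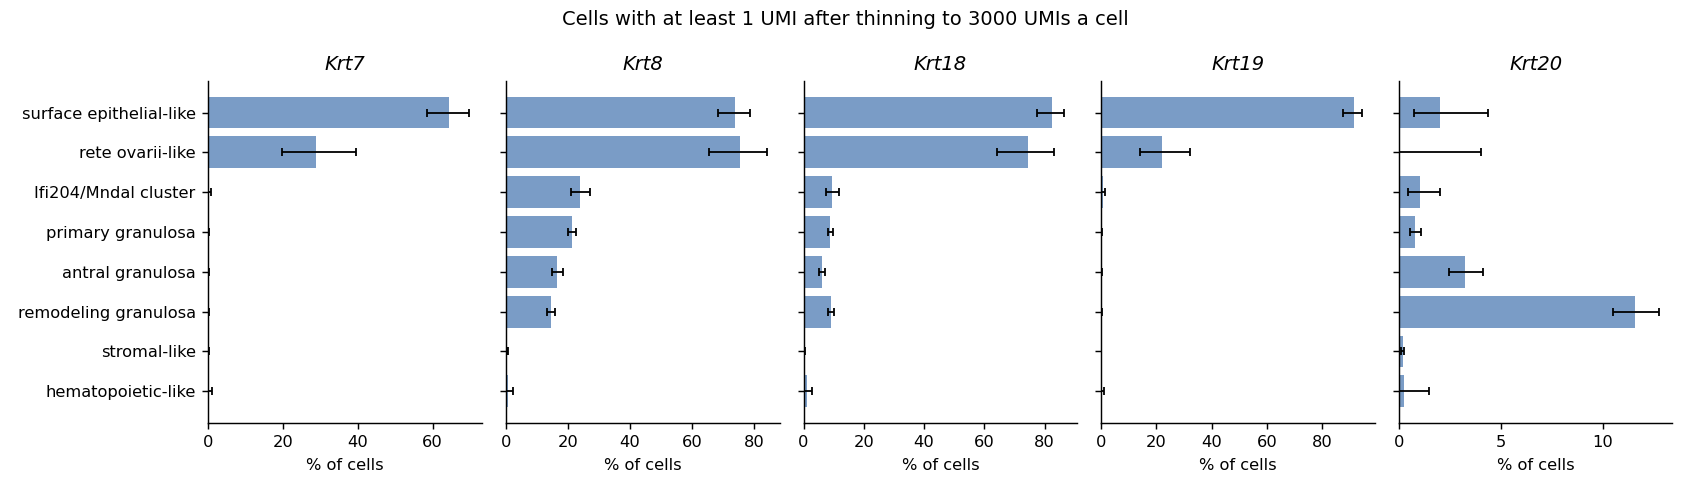
Share of cells (%) with at least 1 UMI of each keratin after thinning to 3000 UMIs a cell, with exact binomial 95% intervals, over all 5 libraries; the x axis differs between panels. Hematopoietic-like cells at the bottom stand for free RNA, and remodeling granulosa cells have the highest Krt20 share shown, 11.6%. By library that share ran from 1.39% at 2 wk to 16.2% at 4 wk, a spread that the intervals leave out.

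The balance of the Krt8 and Krt18 pair differed between cell groups. There were 0.575 ± 0.113 Krt8 UMIs for each Krt18 UMI in surface epithelial-like cells (SD, n = 5) and 0.878 and 0.923 in the rete ovarii-like cells of the 2 libraries. In granulosa-like cells the ratio was 2.82 ± 0.69, with a range of 2.30 to 3.97 that did not overlap the 0.479 to 0.723 of the surface epithelium. Among granulosa groups it was 3.67 ± 1.37 in antral, 2.66 ± 0.59 in primary and 1.69 ± 0.23 in remodeling cells. The range of remodeling cells, 1.29 to 1.85, lay below those of antral (2.67 to 5.96) and primary cells (2.17 to 3.68). It overlapped the range of a cluster led by Ifi204 and Mndal, described below (1.69 to 4.43, mean 3.44 ± 1.07). At 2 wk the remodeling ratio rested on 26 Krt8 and 15 Krt18 UMIs. Its counting interval, 0.885 to 3.52, reached into the antral and primary ranges. The share of other gene pairs without overlap was not counted.

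The granulosa-like cells were clustered again into 16 clusters, and stages were named from marker lists that hold no keratin. Primary (4527 cells), antral (1884) and remodeling (3117) granulosa cells could be named, the last standing for granulosa cells of follicles in atresia. A further cluster of 801 cells was led by Ifi204, Mndal and Aldh1a2. It had the highest score for the primordial list, but 2 of 7 of that list's markers (Rspo1 and Lhx9) were detected, so it is called by its leading genes. Its Krt8 level was 106, 136, 107, 78.7 and 101 CPM at 2, 3, 4, 5 and 6 wk. In primary cells Krt8 stood at 76.7, 82.2, 106, 96.1 and 85.3 CPM, and in antral cells at 57.7, 53.1, 70.2, 72.0 and 50.1 CPM. The Ifi204 and Mndal cluster and primary cells overlapped, and the lowest library of each lay above the highest antral library. How many other genes were separated in this way was not counted.

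Against primary cells, 0 of the 3 keratins tested differed in the Ifi204 and Mndal cluster (edgeR quasi-likelihood test; 0 at an unadjusted p under 0.05, 0 by DESeq2), beside 35.8% of 12624 genes called in either direction. The difference of Krt8 was 0.23 (95% interval -0.06 to 0.53, edgeR adjusted p = 0.238), that of Krt18 -0.10 (-0.36 to 0.16) and that of Krt20 0.03 (-0.97 to 1.03). Krt7 and Krt19 were removed by the filter on low counts in the fits of granulosa stages. When Krt genes were kept for clustering, Krt19 was tested and was higher in this cluster than in primary cells (4.02, edgeR adjusted p = 2.07e-04). Keratins then helped to form the groups, so this p-value is not independent of the clustering. With Krt genes left out of clustering, Krt19 was higher in this cluster than in antral cells when no filter was used (3.43, edgeR adjusted p = 0.0128). It was also tested and higher than in antral cells without the 3 wk library (3.81, edgeR adjusted p = 0.0293). All 8 Krt19 UMIs of this cluster at 6 wk came from 1 cell. Against antral cells, Krt8 was higher by 0.73 ± 0.16 (edgeR adjusted p = 3.19e-04) and Krt18 by 0.75 ± 0.15 (1.07e-04 in the same test), beside 25.8% of genes tested. Krt20 was lower by -1.20 ± 0.46 (edgeR adjusted p = 0.0321), beside 26.3% of genes. Within libraries the Krt20 ratio was above 1 in 2 of 5, and its counting interval lay below 1 in 2. The call on Krt20 was lost with DESeq2 (adjusted p = 0.0515), without the 4 wk library (edgeR, -0.90, adjusted p = 0.202) and without the 6 wk library (edgeR, -0.91, adjusted p = 0.157).

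The Ifi204 and Mndal cluster still lay far below the surface epithelium. In this contrast 4 of 5 keratins were lower in it, beside 21.3% of 12988 genes. Krt7 and Krt19 passed the filter on low counts only with the surface epithelial-like sums, where they are high, in the fit. Their calls are thus a description of the levels. The log2 differences were -9.79 ± 0.37 for Krt19, -9.29 ± 0.32 for Krt7, -5.09 ± 0.18 for Krt18 and -2.51 ± 0.16 for Krt8. Krt20 did not pass (-1.44 ± 0.63, edgeR adjusted p = 0.0654), but it passed with DESeq2 (adjusted p = 0.0127) and with DESeq2 size factors in edgeR (adjusted p = 0.0477). Krt19 had 14 UMIs in this cluster, of which 8 came from 1 cell at 6 wk, and without the 6 wk library its difference was -10.89.

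Krt18 was higher in remodeling than in antral granulosa cells, whereas Krt8 was not. Krt18 stood at 19.3, 35.9, 34.6, 47.0 and 29.9 CPM in remodeling cells at 2, 3, 4, 5 and 6 wk, and at 9.68, 13.6, 26.3, 24.7 and 17.5 CPM in antral cells. It was higher in 5 of 5 libraries, by 0.77 ± 0.12 (log2 ± SE, edgeR adjusted p = 1.21e-05). Krt8 stood at 33.5, 46.2, 61.2, 86.1 and 55.2 CPM in remodeling cells. Its difference from antral cells was -0.05 (95% interval -0.35 to 0.24, edgeR adjusted p = 0.808), and its sign changed with the cluster resolution, without integration and with Krt genes kept for clustering.

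Of the 3 members tested between remodeling and antral cells, Krt20 showed the largest difference. In remodeling cells it stood at 5.15, 12.3, 58.7, 29.1 and 39.9 CPM at 2, 3, 4, 5 and 6 wk. In antral cells it stood at 0.806, 2.54, 18.3, 8.25 and 10.3 CPM, and in primary cells at 1.51, 2.68, 7.09, 1.24 and 2.87 CPM. The remodeling level was above the antral level in 5 of 5 libraries, by 3.20 to 6.39 times, although the groups overlapped when libraries of different age were set together. The counting interval of the ratio lay above 1 in 4 of the 5, and the highest ratio, at 2 wk, rested on 4 UMIs against 2. The difference was 1.85 ± 0.25 (log2 ± SE, edgeR adjusted p = 1.25e-06). With Krt18 it made 2 of the 3 keratins tested higher in remodeling cells, beside 23.8% of genes tested. It was 0.97 (edgeR adjusted p = 0.00592) when Krt genes were kept for clustering, and 0.47 (edgeR adjusted p = 0.43) when the libraries were merged without integration. In that last case antral cells, which reached 20 cells in 2 libraries, held 29.1 CPM. Granulosa-like cells without a stage name entered neither group. They held Krt20 at 0.808, 3.74, 38.9, 20.5 and 28.0 CPM at 2, 3, 4, 5 and 6 wk. Among them cluster 13, described below, had Fst, Tdrd5, Nap1l5, Inhba, Nr5a2 and Bex4 of the antral list detected. The difference with such cells counted as antral was not tested.

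**Figure D4:**
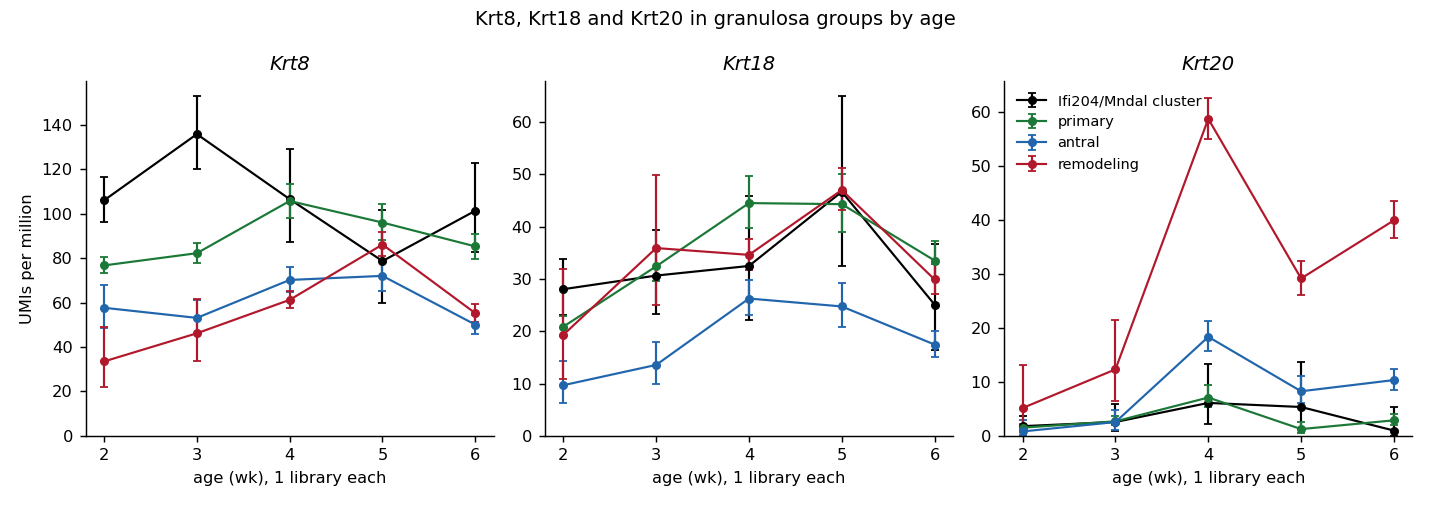
Level of Krt8, Krt18 and Krt20 (CPM, y axis from 0) in 4 granulosa groups by age, 1 library per age, with exact Poisson 95% intervals of the counts. Krt20 in remodeling cells is highest at 4 wk, 58.7 CPM, and the Ifi204 and Mndal cluster and primary cells hold more Krt8 than antral cells.

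Krt20 was higher at 4 wk than at 2 wk in several granulosa groups, but not all of them stayed high. Over all granulosa-like cells the level at 4 wk was 26.2 times that at 2 wk (95% interval 20.3 to 34.4), and at 3 wk 2.30 times (1.68 to 3.18). Within antral cells it was 22.7 times (6.20 to 189) from 2 UMIs at 2 wk, within remodeling cells 11.4 times (4.44 to 41.9) and within primary cells 4.69 times (2.99 to 7.45). At 5 and 6 wk remodeling cells stood at 5.66 and 7.75 times the 2 wk level, but primary cells at 0.822 (0.308 to 1.88) and 1.90 times (1.13 to 3.18). After thinning, Krt20 was found at 4 wk in 16.2% of remodeling and 1.34% of primary cells. The hematopoietic-like share was 1 of 73 cells at 4 wk (1.37%, exact binomial 95% interval 0.0347 to 7.40) and 0 of 46 at 2 wk. The part of free RNA in the primary ratios was not tested. The Ifi204 and Mndal cluster stood at 1.78, 2.55, 6.09, 5.34 and 0.965 CPM, from 1 to 7 UMIs a library. The ratios in remodeling cells rest on 76 cells and 4 UMIs at 2 wk. Those 76 cells were all of cluster 1, and 0 were of cluster 6 (clusters described below). At 4, 5 and 6 wk cluster 6 gave 551 of 1308, 216 of 750 and 271 of 868 remodeling cells. The ratios thus mix level with make-up, and the part of each was not tested. Remodeling cells were 2.52% and 3.47% of granulosa-like cells at 2 and 3 wk, and 25.8%, 30.1% and 23.2% at 4, 5 and 6 wk. Over the same ages the highest ratio to 2 wk in granulosa-like cells was 1.79 (1.65 to 1.94) for Krt18 and 1.03 (0.989 to 1.08) for Krt8.

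Within the granulosa class Krt20 lay in few clusters. Cluster 6, a remodeling cluster led by Gm15866, Adamts5 and Lox, held 77.3 CPM over all libraries (72.6 to 82.1). Cluster 13, led by Frzb and without a stage name, held 69.4 CPM (63.4 to 75.9). Cluster 2, also unnamed and led by Cda and Vpreb3, held 32.1 CPM, and cluster 1, a remodeling cluster led by S100a6, held 18.7 to 36.5 CPM at 4, 5 and 6 wk. The antral clusters 8 and 10 held 11.2 and 10.0 CPM, and cluster 7, a primary cluster led by Gldn, held 0.919 CPM. Clusters 1, 2, 6 and 13 together held 74.3% of the Krt20 UMIs of granulosa-like cells and 30.4% of the cells. They were picked after their Krt20 levels were seen, so the share is a description. Doublet calls made up at most 0.536% of the cells of each.

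In cluster 6 Krt20 stood at 93.2, 58.5 and 66.9 CPM at 4, 5 and 6 wk, and no cell of this cluster came from the 2 wk library. In cluster 13 it stood at 92.4, 64.1 and 66.9 CPM at these ages, and 0 UMIs were found in its 30 cells at 2 wk, against a floor of 7.44 CPM. In cluster 2 it stood at 1.44 and 6.27 CPM at 2 and 3 wk, and at 52.1, 27.4 and 39.6 CPM afterwards. In every one of these clusters the 4 wk library was the highest. Krt8 was not high in clusters 6 and 13, where Krt20 was highest. Over all libraries it held 49.9 CPM in cluster 6 and 40.2 CPM in cluster 13, against 110 CPM in the Ifi204 and Mndal cluster. These values do not cover clusters 1 and 2.

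**Figure D5:**
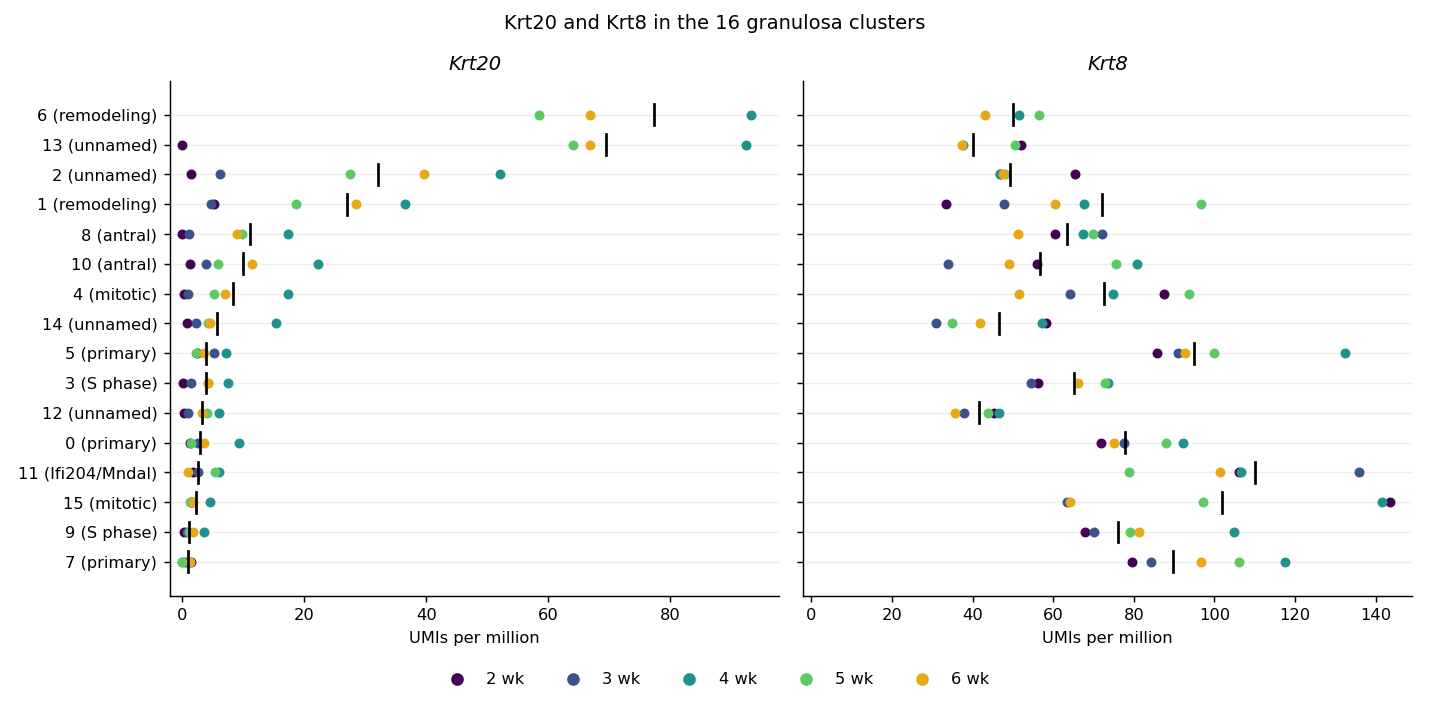
Level of Krt20 and Krt8 (CPM) in the 16 granulosa clusters, ordered by their Krt20 level over all libraries (black tick), with 1 point per library of at least 20 cells coloured by age; the number and name of each cluster are given. Krt20 is highest in clusters 6 and 13 and below 4 CPM in the primary clusters over all libraries, while Krt8 is highest in the Ifi204 and Mndal cluster.

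In the theca-like, pericyte-like, smooth muscle-like, blood endothelial-like and lymphatic endothelial-like classes the keratins were low. The mean of the libraries was 3.93 to 11.7 CPM for Krt8, against 8.88 CPM in hematopoietic-like cells, and 2.64 to 11.6 CPM for Krt18, against 2.57 CPM. Krt7, Krt19 and Krt20 had means of at most 2.84 CPM in these classes. Some of the higher values came from few cells. In blood endothelial-like cells at 5 wk, all 27 Krt7 UMIs came from 1 cell. In pericyte-like cells at 2 wk, 1 cell held 39 of 43 Krt8 UMIs and 51 of 56 Krt18 UMIs. A smooth muscle-like cluster of 302 cells led by Pcp4, Des and Rspo3 held Krt18 at 84.1, 44.3, 30.3 and 22.3 CPM at 2, 3, 4 and 5 wk, where its highest cell had 13 UMIs at 2 wk. Krt8 in this cluster stood at 36.1 CPM at 2 wk, of which 26 of 43 UMIs came from 1 cell, and at 1.59 to 6.99 CPM from 3 to 5 wk. This cluster was a part of the smooth muscle-like class, whose Krt18 stood at 14.6 CPM at 2 wk and 2.07 to 7.90 CPM later. In the 8494 cells of clusters without a class name Krt8 stood at 36.0 to 44.9 CPM and Krt18 at 10.2 to 19.9 CPM.

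Of the other 48 keratin genes, 46 had under 1000 UMIs and 11 of all keratins had none. Krt10, the type I chain of differentiating epidermis, had 9610 UMIs and was spread over the classes, at 13.4 ± 5.3 CPM in granulosa-like and 20.8 ± 8.6 CPM in stromal-like cells. Krt79, a type II keratin of hair follicles and glands, had 7505 UMIs. It stood at 201, 224, 182, 77.4 and 119 CPM in the Ifi204 and Mndal cluster and at 23.7 to 37.9 CPM in primary cells. Its difference was 2.24 ± 0.29 against primary and 4.19 ± 0.34 against antral cells (log2 ± SE, edgeR adjusted p = 1.25e-06 and 1.81e-10). Krt1, partner of Krt10, had 743 UMIs and was also higher in that cluster than in primary cells (1.50 ± 0.32, edgeR adjusted p = 5.38e-04). It stood there at 9.43, 8.17 and 6.09 CPM at 2, 3 and 4 wk. At 5 wk it stood at 1.33 CPM from 1 UMI, below the 2.48 CPM of primary cells. At 6 wk it stood at 2.90 CPM from 3 UMIs, against 2.29 CPM in primary cells. Krt80, with 205 UMIs, stood at 18.9 CPM in rete ovarii-like cells as a mean of 2 libraries and 10.7 ± 7.5 CPM in hematopoietic-like cells, and Krt12 had 114 UMIs.

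Genes of other filaments and of desmosomes, in a list that also holds lamins, did not all follow the keratins. Of 22 filament and desmosome genes, 20 were tested between surface epithelial-like and granulosa-like cells, 12 were higher and 5 lower, with a median of 1.41 (log2) beside -0.06 over all genes. Of all genes tested in this contrast 26.1% were higher and 25.5% lower, so the share of the list that was lower was near that of all genes. Of the 12 that were not among the features used to cluster, 7 were higher and 3 lower. The highest were Ppl, the plakin periplakin, at 105 ± 39.9 against 0.298 ± 0.073 CPM (8.19 ± 0.43), the desmosomal plakophilin Pkp3 (6.79 ± 0.89) and Sfn (5.69 ± 0.43). Pkp3 was near the floor, at 3.58 ± 2.67 against 0.019 ± 0.013 CPM, from at most 4 UMIs a library in surface epithelial-like cells. The lowest were Dsp, desmoplakin, at 18.5 ± 6.4 against 91.1 ± 27.2 CPM (-2.40 ± 0.28), Dst (-1.99 ± 0.22) and the lamin Lmnb1 (-1.30 ± 0.24). Thus Dsp, which anchors keratin to desmosomes, was lower in the class with more keratin. Of these named genes Ppl, Sfn, Dsp and Lmnb1 were themselves among the clustering features, whereas Pkp3 and Dst were not.

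Of 20 genes of epithelial junctions and their regulators, 15 were tested, 12 were higher in surface epithelial-like cells and 1 was lower, beside the same 26.1% and 25.5% of all genes. Their median was 3.18 (log2), beside -0.06 over all genes. Of the 9 not used to cluster, 7 were higher and 1 lower. Cdh1, E-cadherin, stood at 34.7 ± 26.6 against 0.083 ± 0.086 CPM (8.48 ± 0.67), Epcam at 695 ± 295 against 2.28 ± 1.11 CPM (8.19 ± 0.35), and the claudin Cldn7 differed by 5.81 ± 0.82. Cldn7 was low, at 7.15 ± 7.46 against 0.096 ± 0.076 CPM, with 0 UMIs in surface epithelial-like cells at 2 and 3 wk. At the other end stood Cdh2, N-cadherin, which was lower (34.6 ± 11.9 against 53.1 ± 19.7 CPM, -0.72 ± 0.29, edgeR adjusted p = 0.0322). Elf3 (-0.69 ± 0.50) and Tjp1 (0.09 ± 0.16) did not pass. Cdh1, Epcam, Cldn7 and Elf3 were among the clustering features, so their differences are not independent of how the classes were made. Between granulosa-like and stromal-like cells 9 of the 15 were higher and 3 lower, beside 29.7% and 30.9% of all genes. Between remodeling and antral cells 6 of 11 tested were higher and 1 lower, beside 23.8% and 24.4%.

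Across 46 sums of a class in a library, Pearson's r of log2(CPM + 1) was 0.978 between Krt7 and Krt19 and 0.941 between Krt8 and Krt18. Krt20 had 0.319 to 0.462 with the other members. These sums share libraries and depth, so r is a description. For Krt7 and Krt19 most of the range comes from the surface epithelium, whereas granulosa-like cells held 87.8% of the Krt20 UMIs. The genes most like Krt19 and Krt7 were Upk3b (0.983 and 0.970) and Prr15l (0.981 and 0.966). Those most like Krt8 were Pard6b (0.942), Dsg2 (0.928) and Smim22 (0.927), and those most like Krt18 were Smim22 (0.950), Ildr2 (0.930) and Evpl (0.925). For Krt20 the nearest were Rasl10a (0.799), Bex4 (0.753) and Pak6 (0.738). Upk3b is one of the surface epithelial markers that named the class, and Bex4 one of the antral markers.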

How the data were processed

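Ovarian cells of 5 libraries were analysed, 1 per age. Per the labels and file headers, the authors deposited raw UMI counts per gene and cell as whole numbers, without normalization, counted on mm10 by Cell Ranger 3.1.0 (2, 3 and 4 wk) or 6.0.1 (5 and 6 wk). The submitters' processing notes also name Seurat 4.1.0.

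All deposited cells were kept. Libraries were integrated in Seurat 5.3.0 (2000 features, of which 7 Krt genes were left out; 30 of 50 principal components; resolution 1), and granulosa-like cells were clustered again. A cluster was named when at least 3 markers of a list were detected, each in at least 10% of its cells and at 1.5 times the median cluster. The keratins, lists and tests were chosen with earlier results of these data known. Doublets were called with Scrublet in scanpy 1.11.5 (2.08% to 5.01% of cells a library) and kept. UMIs were summed per library and group (at least 20 cells) and tested in edgeR 4.0.16 (quasi-likelihood, TMM, filterByExpr, library as a term, Benjamini-Hochberg adjustment over all genes tested, threshold 0.05). SE is the log2 fold change divided by the square root of F. Libraries stand as replicates and differ in age, so p-values measure the spread between these libraries only. Levels have exact Poisson, shares exact binomial and ratios between libraries exact conditional 95% intervals, which cover counting error only, and a floor is 3 counts.

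Genes named are the 5 keratins, the 5 other keratins with the most UMIs, the 3 highest and 3 lowest of a list of 22 filament and a list of 20 epithelial genes in surface epithelial-like against granulosa-like cells, and the 3 genes that correlated best with each member (at least 500 UMIs, log2(CPM + 1)). Alternatives were Krt genes kept among the features, resolution 0.6, libraries merged without integration, doublets left out, at least 1000 genes and under 10% mitochondrial UMIs a cell, DESeq2 1.42.0, its size factors in edgeR, no filter, at least 10 cells a sum, each library left out, and thinning to 1500 UMIs or none. Of the cells, 8494 in clusters without a class name entered no test. A further 3414 granulosa-like cells in clusters without a stage name entered no test of granulosa stages.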

Additional observations from a re-analysis of the deposited data

Results flagged for a closer look

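In 49 sets of 5 libraries with at least 20 UMIs of a keratin, 5 had a library that stood far from the others. The limit used is passed by about 1 in 20 sets of independent, normally distributed values. Here sets shared cells and the libraries differed in age, so that rate does not hold, and an excess was not tested. Krt7 in blood endothelial-like cells stood at 5.29 CPM at 5 wk and at 0 in the other libraries, with all 27 UMIs in 1 cell. Krt8 in blood endothelial-like cells stood at 12.3 CPM at 3 wk, from 4 UMIs. In pericyte-like cells at 2 wk, Krt8 stood at 34.2 CPM and Krt18 at 44.6 CPM, and 1 cell held 39 of 43 and 51 of 56 UMIs. Krt20 in primary granulosa cells stood at 7.09 CPM at 4 wk, from 50 UMIs with at most 5 in a cell.

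The ratio of Krt20 in surface epithelial-like to granulosa-like cells was 7.43 at 2 wk and 0.289 at 4 wk, with counting intervals on opposite sides of 1. The ratio of Krt8 in remodeling to antral granulosa cells was 0.581 at 2 wk and 0.872 at 4 wk, but 1.20 at 5 wk, again with intervals on opposite sides of 1. The difference between ages was not tested, since each age had 1 library.

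Cluster 13 of the granulosa-like cells entered no comparison between granulosa stages, because other markers led those of the antral list that it held, though its cells are part of the granulosa-like class. Its Krt20 level was 69.4 CPM from 489 UMIs, with at most 8 in a cell.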

How the results depend on the processing

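Among 546 alternative values of the members' log2 differences, 519 kept direction and side of the threshold, 7 lost the call, 4 gained one and 16 changed sign, and every change of sign was in a difference that had not passed. Of 126 counts of members called, 122 were within 1.5 times the reported count. Cell groups of the same library were compared with the library as a term in each fit. Between ages, no paired analysis was possible because each age had 1 library.

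Krt20 in surface epithelial-like against granulosa-like cells was 0.069 without doublets, 0.19 with DESeq2, 0.14 with its size factors and -0.86 to 0.47 when 1 library was left out. Krt18 in rete ovarii-like against surface epithelial-like cells ranged from -0.71 to 0.0046, Krt7 in granulosa-like against hematopoietic-like cells from -0.85 to 4.46, Krt20 in the Ifi204 and Mndal cluster against primary cells from -0.25 to 0.17, and Krt8 in remodeling against antral cells from -0.18 to 0.033 when 1 library was left out. Krt20 in that cluster against primary cells was -0.036 without a filter on low counts. Krt8 in remodeling against antral cells was 0.046 with Krt genes kept for clustering, 0.061 at resolution 0.6 and 0.11 without integration.

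In rete ovarii-like against surface epithelial-like cells, 1 member passed with DESeq2, and 1 to 2 when 1 library was left out, with 1198 to 2584 genes called in place of 2715 (1198 without the 2 wk library, where 1 rete ovarii-like sum remains and is assumed to vary like the others). In the Ifi204 and Mndal cluster against primary cells, 1 member (Krt19) passed with Krt genes kept for clustering, where keratins helped to form the groups. Against antral cells, 2 to 4 members passed when 1 library was left out, with Krt19 among them without the 3 wk library. Without integration, remodeling against antral cells had 1 member called and 2100 genes in place of 6090, and the Ifi204 and Mndal cluster against antral cells 3706 in place of 6578. Without integration antral cells filled 2 libraries and remodeling cells 3, and Krt20 stood at 29.1 and 53.0 CPM in them, while Krt8 in the cluster stood at 126 CPM. Krt18 in the Ifi204 and Mndal cluster against antral cells was 0.56 there (edgeR adjusted p = 0.0648). Krt19 in surface epithelial-like cells stood at 1597 CPM without doublets. The cause of these changes was not tested.

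With thinning to 1500 UMIs and with none, the share with Krt19 in surface epithelial-like cells was 80.7% and 94.7%, with Krt8 in granulosa-like cells 9.47% and 52.6%, and with Krt20 in remodeling cells 6.55% and 35.9%, so a share depends on the depth at which it is read. Depth limited the rete ovarii-like class at 4 to 6 wk (6 cells), Krt20 in surface epithelium (29 UMIs) and Krt20 in antral cells at 2 wk (2 UMIs). A comparison with secondary granulosa cells was not run, as no cluster had that name.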
